A study of Mus musculus with 24 samples.

Results

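The endoplasmic reticulum (ER) chaperone genes examined here were Hspa5, Hsp90b1, Canx, Calr, Pdia4, Sdf2l1, Xbp1, Herpud1, Dnajb9 and Creld2, which are 10 of the 55450 genes in the count table. They were chosen by gene symbol, and each symbol had 1 row. RNA of 3 tissues, namely cerebellum, liver and testes, was sequenced from C57BL/6N mice aged 6 to 12 weeks that either lacked Thumpd1 (knockout, KO) or carried it (wild type, WT), with 4 libraries per genotype and tissue, or 24 in all. The KO carried CRISPR-Cas9 deletions made by targeting exons 1 and 4 of Thumpd1, in lines raised from microinjected eggs and backcrossed to C57/BL6, so the KO is germline and not limited to a cell type. Controls were littermates matched for age. Thumpd1 works with the acetyltransferase Nat10 to acetylate cytidine in tRNA, and the comparison asked how tissue transcripts differ without it.

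Secreted and membrane proteins fold in the ER, where chaperones bind unfolded chains and oxidoreductases form their disulfide bonds. When unfolded proteins build up, the sensors Ire1 (Ern1), Perk (Eif2ak3) and Atf6 start the unfolded protein response, in which Atf6 and spliced Xbp1 induce chaperone genes and Perk raises translation of Atf4. Liver, which exports plasma proteins, and the developing sperm and Sertoli cells of the testis are known for a large secretory load. Hspa5 (BiP) is the Hsp70 chaperone of the ER and Hsp90b1 (Grp94) its Hsp90 chaperone. Canx and Calr bind glycoproteins, Pdia4 is a protein disulfide isomerase, and Sdf2l1 acts in complexes with Hspa5. Dnajb9 (ERdj4) is a co-chaperone of Hspa5, Herpud1 helps organize ER-associated degradation, Creld2 is an ER-resident protein induced by ER stress, and Xbp1 encodes a transcription factor of the response.

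The promoters of the genes with an ER stress response element are shown first, because this element is the textbook binding site through which Atf6 and its partner NF-Y induce chaperone genes. RefSeq promoter windows of 300 bases (GRCm38.p6, the assembly also called mm10) were matched for 10 of 10 genes, and each ran from 250 bases before to 50 bases after the transcription start. The element was searched on both strands as CCAAT, any 9 bases, then CCACG, and its shorter form ERSE-II as ATTGG, any 1 base, then CCACG. The sequences below run 5′ to 3′ in the direction of the gene, and capitals mark the outer parts of each match, read as CGTGG and ATTGG where the match was on the other strand.
Hspa5 (chr2:34771840-34772139, plus strand): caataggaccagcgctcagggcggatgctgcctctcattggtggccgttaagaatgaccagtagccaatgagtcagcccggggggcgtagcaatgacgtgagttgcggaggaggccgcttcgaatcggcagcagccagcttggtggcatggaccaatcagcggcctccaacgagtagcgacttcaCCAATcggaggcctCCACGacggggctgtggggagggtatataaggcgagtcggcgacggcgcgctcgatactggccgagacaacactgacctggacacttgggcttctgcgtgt
Hsp90b1 (chr10:86705395-86705694, minus strand): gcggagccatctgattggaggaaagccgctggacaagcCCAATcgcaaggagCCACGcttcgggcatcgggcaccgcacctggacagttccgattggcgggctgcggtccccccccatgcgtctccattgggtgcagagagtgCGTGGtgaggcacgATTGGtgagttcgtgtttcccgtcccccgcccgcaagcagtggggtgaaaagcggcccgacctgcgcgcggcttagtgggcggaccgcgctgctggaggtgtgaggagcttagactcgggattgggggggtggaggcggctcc
Calr (chr8:84846882-84847181, minus strand): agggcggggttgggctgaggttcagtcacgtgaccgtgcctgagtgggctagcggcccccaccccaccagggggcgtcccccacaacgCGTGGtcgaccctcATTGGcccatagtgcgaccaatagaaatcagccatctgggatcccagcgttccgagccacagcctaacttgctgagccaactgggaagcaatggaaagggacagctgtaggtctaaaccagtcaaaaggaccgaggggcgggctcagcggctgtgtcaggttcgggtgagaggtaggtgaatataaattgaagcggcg
Canx (chr11:50325624-50325923, minus strand): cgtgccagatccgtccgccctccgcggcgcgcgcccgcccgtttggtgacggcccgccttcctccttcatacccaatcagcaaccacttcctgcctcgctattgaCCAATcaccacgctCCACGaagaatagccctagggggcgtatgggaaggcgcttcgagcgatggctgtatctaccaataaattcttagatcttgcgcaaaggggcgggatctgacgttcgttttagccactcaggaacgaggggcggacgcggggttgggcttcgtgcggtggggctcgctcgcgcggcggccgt
Creld2 (chr15:88819396-88819695, plus strand): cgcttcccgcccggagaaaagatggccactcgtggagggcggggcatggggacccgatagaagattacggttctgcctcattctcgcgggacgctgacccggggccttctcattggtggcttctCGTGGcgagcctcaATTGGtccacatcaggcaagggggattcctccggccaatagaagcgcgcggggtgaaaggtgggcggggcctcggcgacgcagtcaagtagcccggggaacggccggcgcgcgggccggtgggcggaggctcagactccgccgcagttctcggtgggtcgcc
Herpud1 (chr8:94386179-94386478, plus strand): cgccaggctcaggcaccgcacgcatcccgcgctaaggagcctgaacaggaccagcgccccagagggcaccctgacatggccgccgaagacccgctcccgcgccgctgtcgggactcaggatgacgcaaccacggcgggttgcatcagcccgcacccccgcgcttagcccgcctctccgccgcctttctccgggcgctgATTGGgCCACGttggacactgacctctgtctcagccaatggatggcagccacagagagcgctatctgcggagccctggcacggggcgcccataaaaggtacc
The full element was found in 5 of the 10 windows, 2 times in Hsp90b1 and 1 time each in Hspa5, Calr, Canx and Creld2, and ERSE-II was found in Herpud1. In Hspa5 the match lay 65 to 47 bases before the start. Of 32817 promoter windows of the same length, 39 (0.119%) held the full element and 12 (0.0366%) held ERSE-II. Neither form was found in the windows of Dnajb9 (chr12:44210019-44210318), Pdia4 (chr6:47813463-47813762), Sdf2l1 (chr16:17132334-17132633) and Xbp1 (chr11:5520391-5520690). The Xbp1 and Atf6 motif TGACGTGG was in none of the 10 windows and in 0.676% of all windows, and the Atf4-type motif TGATGCAAT was in none of the 10 and in 0.192% of all. These are matches of letters and say nothing of binding.

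Total counts ran from 16353797 to 37889615 per library. Thumpd1 had 248 to 846 counts in the WT libraries of any tissue, against 0 to 2 in cerebellum KO, 0 to 4 in liver KO and 23 to 41 in testes KO. Markers matched the labelled tissues, as hepatocyte markers summed to 45451 to 72472 scaled CPM in liver and at most 2.69 elsewhere, granule cell markers to 4959 to 5681 in cerebellum and at most 6.64 elsewhere, and spermatid markers to 5978 to 9480 in testes and at most 0.13 elsewhere. Scaled CPM are library-size-normalized counts (CPM) after TMM scaling (trimmed mean of M-values) among the 8 libraries of a tissue. Ranges of KO and WT were compared in scaled CPM. The log2 changes between KO and WT came from quantile-normalized fits unless another fit is named. They can thus differ from the ratio of the scaled CPM beside them. Neighbouring libraries (replicates 1 and 2, 3 and 4, 5 and 6, and 7 and 8) were often alike. In 9 of 12 such pairs the chi-square per gene, which is about 1 for counting noise alone, was below that of every non-neighbouring pair in the group. Liver WT replicates 3 and 4 were an exception, with 313, the highest of all 36 pairs. So were liver KO replicates 7 and 8 (97.0) and testes WT replicates 1 and 2 (11.4). The choroid plexus markers of the cerebellum summed to 1063 and 1080 scaled CPM in WT replicates 1 and 2, 10.8 and 11.5 in WT replicates 3 and 4, 14.4 and 14.2 in KO replicates 5 and 6, and 359 and 355 in KO replicates 7 and 8. The study calls the libraries biological replicates, and the labels do not say whether neighbours share an animal, litter or day. The fits were therefore repeated with neighbours summed to 2 libraries per group, an alternative chosen after seeing the data. In that fit (limma-voom) 0 of the 10 genes passed between KO and WT in any tissue, where 4 in cerebellum, 0 in liver and 8 in testes had an unadjusted p under 0.05. Over all genes it called 48 of 16225 in cerebellum, 10 of 12816 in liver and 1 of 19329 in testes, and 16.3%, 9.39% and 20.9% had an unadjusted p under 0.05.

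The 10 genes differed in level within each tissue. Per kilobase of exon, Calr was the highest of the 10 in every group of libraries. In WT cerebellum it reached 64.2 ± 2.10 scaled CPM per kb (SD, n = 4), ahead of Canx at 56.4 ± 1.55, Hsp90b1 at 48.5 ± 2.42 and Hspa5 at 42.3 ± 2.84. In WT liver Calr reached 195 ± 11.8 scaled CPM per kb, followed by Hspa5 at 115 ± 20.4 and Herpud1 at 94.1 ± 17.8, and the spreads of the last pair overlapped. In WT testes Calr reached 147 ± 5.93, followed by Hsp90b1 at 108 ± 1.72, Hspa5 at 104 ± 2.09 and Creld2 at 84.9 ± 5.80. The lowest of the 10 per kilobase differed by tissue, being Creld2 in WT cerebellum at 4.77 ± 0.22 (with Sdf2l1 within its spread at 4.79 ± 0.68), Dnajb9 in WT liver at 7.71 ± 1.16 and Xbp1 in WT testes at 4.33 ± 0.22.

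**Figure D1:**
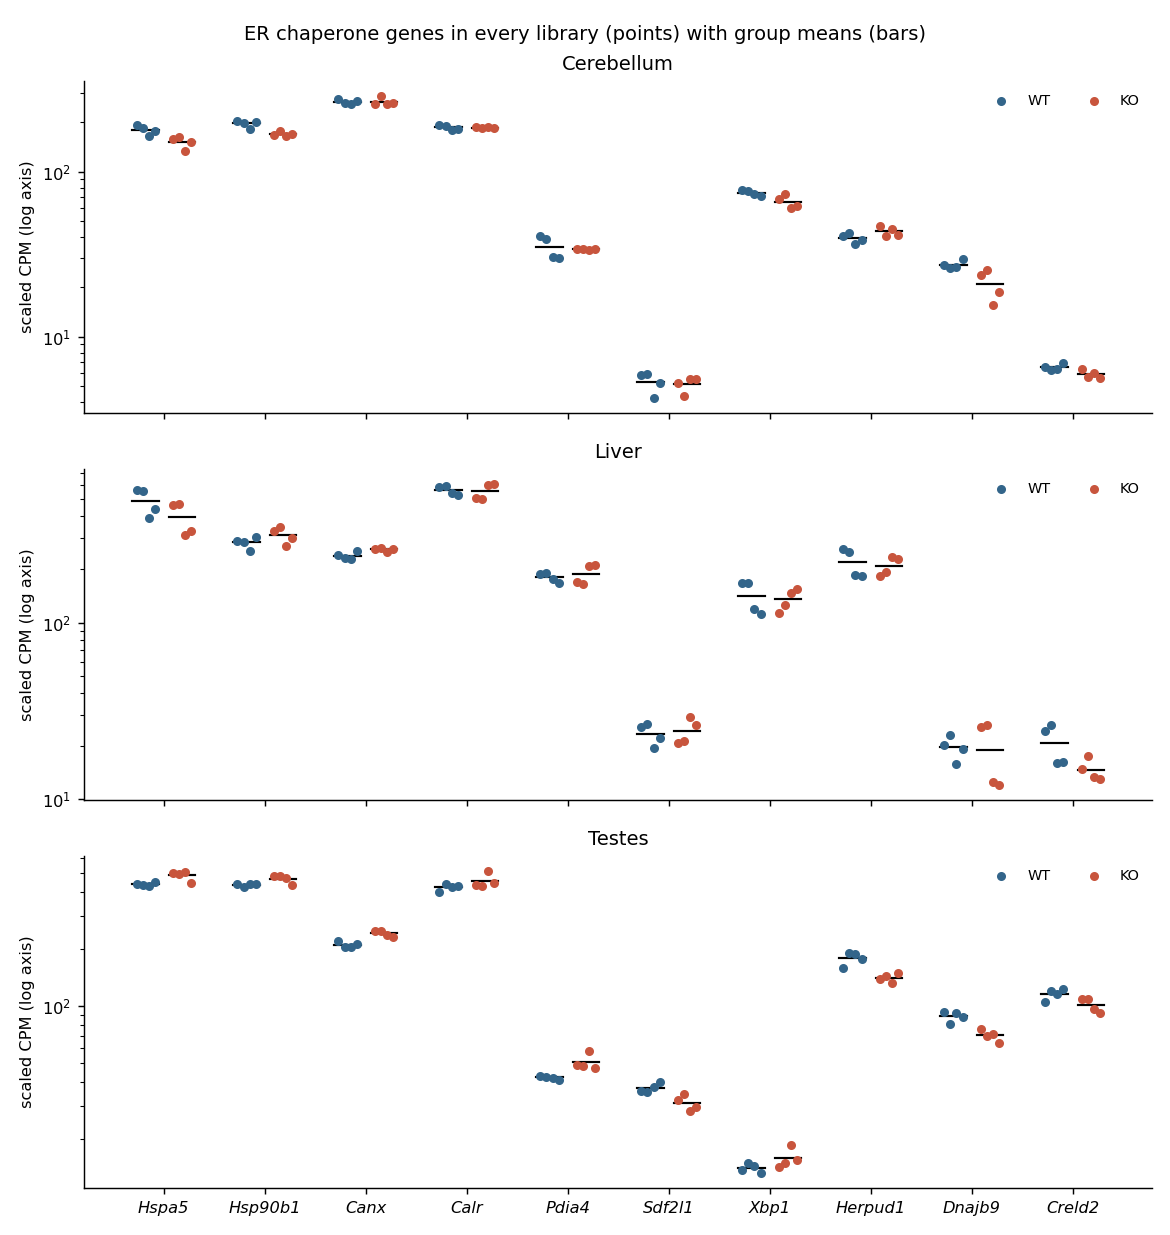
Level of each gene in each library of cerebellum, liver and testes, in scaled CPM on a log axis, with WT in blue and KO in red and bars at the mean of 4 libraries. Dnajb9 in liver KO falls into 2 libraries near 26 and 2 near 12 scaled CPM, and Herpud1 in testes KO lies below all WT libraries.

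Between WT tissues, most of the 10 genes were highest in liver, and Dnajb9 and Creld2 were highest in testes. Levels were compared in a limma-voom fit of all 24 libraries over 11112 genes, on a TMM scale common to the tissues (common-scale CPM). All 10 genes were lower in cerebellum than in liver, where 89.7% of all genes differed in either direction. Herpud1 averaged 39.5 ± 2.5 common-scale CPM in cerebellum and 428 ± 82.7 in liver, a log2 difference of -3.42 ± 0.12 (SE, adjusted p = 1.16e-19). Pdia4 averaged 35.0 ± 5.7 against 353 ± 22.2, a log2 difference of -3.33 ± 0.093 (adjusted p = 1.37e-21). Canx differed least among the chaperones that bind glycoproteins, with 264 ± 7.0 against 466 ± 17.2 and a log2 difference of -0.82. Dnajb9 had the smallest difference of the 10, at -0.49 ± 0.18 (adjusted p = 0.0134), and this call was lost with neighbours summed (adjusted p = 0.0913).

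Against liver, testes were lower in 6 genes, higher in 2 and not different by the test in 2, with 90.6% of all genes different in either direction. Xbp1 had the largest gap, with 17.05 ± 0.85 common-scale CPM in testes and 276 ± 58.9 in liver, or a log2 difference of -4.00 ± 0.14 (adjusted p = 9.08e-20). Creld2 was 3.52-fold higher in testes (141 ± 9.9 against 40.4 ± 10.4, adjusted p = 2.76e-14), and Dnajb9 was 2.82-fold higher (108 ± 7.1 against 38.3 ± 5.7, adjusted p = 1.61e-09). Hsp90b1 averaged 530 ± 11.2 and 553 ± 38.3 (adjusted p = 0.376, with the sign turned and adjusted p = 0.00735 under quantile normalization of all 24 libraries), and Sdf2l1 averaged 45.1 ± 2.9 and 45.8 ± 6.2 (adjusted p = 0.851). Xbp1 and Creld2 thus lay at opposite ends of the 10 genes in this comparison. Counts were summed per gene, so spliced and unspliced Xbp1 RNA could not be told apart.

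Against cerebellum, testes were higher in 8 genes and lower in Xbp1, with 90.0% of all genes different in either direction. Creld2 was 21.5-fold higher (141 ± 9.9 against 6.5 ± 0.3) and Sdf2l1 8.44-fold higher (45.1 ± 2.9 against 5.3 ± 0.7), while Xbp1 was 4.37-fold lower. Canx did not pass the test, at 256 ± 8.8 against 264 ± 7.0 (adjusted p = 0.342). Under quantile normalization of all 24 libraries it did, with a log2 difference of -0.38 (adjusted p = 6.74e-08). By total counts, where 6 abundant noncoding RNAs took 17.5 to 31.0% of liver counts and 4.56 to 7.41% elsewhere, the median of all genes moved to a log2 difference of 0.93 between cerebellum and liver and 0.58 between testes and liver, from 0.02 and -0.03. The signs of Canx and Dnajb9 between cerebellum and liver, and of Hsp90b1 and Sdf2l1 between testes and liver, changed with it, and no other sign did. The part of the 6 noncoding RNAs in this shift was not tested. Under quantile normalization of all 24 libraries the log2 difference shrank for Canx between cerebellum and liver from -0.82 to -0.40, and between testes and liver for Hspa5 from -0.81 to -0.41 and for Calr from -1.09 to -0.72, and each was still called.

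**Figure D2:**
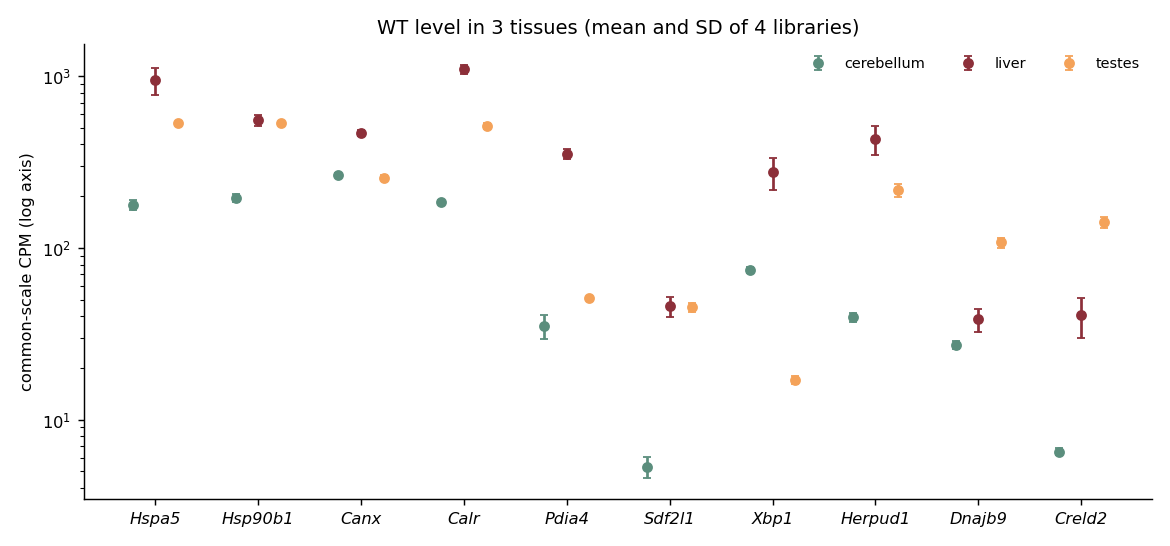
Level of each gene in WT cerebellum, liver and testes in common-scale CPM on a log axis, as mean and SD of 4 libraries. Creld2 and Dnajb9 are highest in testes at 141 and 108, while Xbp1 and Pdia4 are highest in liver at 276 and 353.

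In cerebellum the KO libraries had less RNA of Hsp90b1 and Dnajb9, and the other 8 genes did not pass the test (adjusted p under 0.05, limma-voom with quantile normalization, over 16225 genes). Of the 10 genes, 0 were called higher and 2 lower, where 3.93% of all genes tested were called higher and 2.51% lower. The ranges of KO and WT did not overlap for 3 genes, all lower in KO, and this held for 13.9% of all genes. The median log2 change of the 10 was -0.11, beside -0.01 for all genes. In bulk tissue, fewer cells of a type and less RNA per cell cannot be told apart. Granule cell markers summed to 5439 to 5681 scaled CPM in WT cerebellum and 4959 to 5400 in KO, with 3 of 6 called lower, and Purkinje cell markers to 5615 to 6126 in WT and 5830 to 6131 in KO, with 2 of 6 called higher. Their part in the changes of the chaperone genes was not tested.

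Hsp90b1 was at 204, 197, 181 and 200 scaled CPM in WT and at 166, 176, 163 and 169 in KO. Every KO library was below every WT library, and the log2 change was -0.20 ± 0.044 (SE, n = 4 per group, adjusted p = 0.0208). The co-chaperone Dnajb9 was at 27.2, 26.0, 26.3 and 29.5 in WT and at 23.5, 25.3, 15.5 and 18.6 in KO, a log2 change of -0.44 ± 0.11 (adjusted p = 0.0396). Again no KO library reached the WT range, but KO replicates 7 and 8 lay well below KO replicates 5 and 6. Hspa5 was at 192, 184, 164 and 175 in WT and at 158, 162, 133 and 151 in KO, and its log2 change of -0.23 ± 0.065 missed the threshold (adjusted p = 0.0573). It passed with TMM scaling (limma-voom, adjusted p = 0.0335). The Dnajb9 call was lost with edgeR (adjusted p = 0.0702) and with no filter (limma-voom, adjusted p = 0.0837), and the calls of Dnajb9 and Hsp90b1 each held in 3 of 8 fits that left out 1 library.

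The remaining genes of the cerebellum gave smaller values. Xbp1 averaged 74.6 ± 3.0 scaled CPM in WT and 65.8 ± 5.8 in KO (log2 change -0.18, adjusted p = 0.0819). Calr and Canx, the glycoprotein chaperones, had log2 changes of 0.02 and 0.03, the sign of both turning negative with TMM scaling. Herpud1 was the largest positive value at 0.13 ± 0.061 (adjusted p = 0.225). Pdia4, Sdf2l1 and Creld2 lay between -0.16 and -0.05, with adjusted p of 0.312 or more. Pdia4 was at 40.9 and 39.002 in WT replicates 1 and 2, those with high choroid plexus markers, and at 30.3 and 30.0 in WT replicates 3 and 4. In KO it was at 34.0 and 33.9 in replicates 5 and 6 and at 33.4 and 34.2 in replicates 7 and 8, where the markers were higher, so the KO libraries showed no such gap. The part of the choroid plexus in this was not tested. The count of called members was 0 without WT replicate 1, WT replicate 4, KO replicate 7 or KO replicate 8, 1 without WT replicate 3 or KO replicate 5, and 4 without KO replicate 6. The calls over all genes moved alike, from 638 higher and 407 lower with every library to 300 and 117 without WT replicate 1 and to 1204 and 1113 without KO replicate 6.

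Of 15 tested sensors and regulators of the unfolded protein response in cerebellum, 3 were called higher and 0 lower, beside 3.93% and 2.51% of all genes. Chac1, a glutathione-degrading target of Atf4, rose from 3.11 ± 0.40 to 7.10 ± 0.85 scaled CPM (log2 change 1.19 ± 0.14, adjusted p = 0.000464). Atf4, the transcription factor translated when Perk or related kinases act, rose from 76.4 ± 3.15 to 95.4 ± 2.97 (0.33 ± 0.043, adjusted p = 0.00105). Ddit3 (Chop) rose from 6.43 ± 0.80 to 9.03 ± 0.90 (0.46 ± 0.10, adjusted p = 0.0222). Its exons overlap Mars on the other strand and, over 105 bases, a second Ddit3 entry on the same strand. With neighbours summed Chac1 still passed (adjusted p = 0.0492) and Atf4 and Ddit3 did not (0.0565 and 0.14).

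Among 30 other ER folding factors in cerebellum, 1 was higher and 4 were lower, and this count and those of the next lists stand beside the same 3.93% and 2.51% of all genes. Dnajc3, a co-chaperone of Hspa5 whose promoter also holds the full element, fell from 73.9 ± 4.89 to 63.0 ± 0.90 (log2 change -0.23, adjusted p = 0.0172), and the ER oxidase Ero1lb fell from 25.2 ± 0.46 to 21.8 ± 1.17 (-0.21, adjusted p = 0.0377). Ppib, an ER prolyl isomerase, rose from 65.0 ± 0.92 to 73.6 ± 4.18 (0.18, adjusted p = 0.0317), and its exons overlap Snx22 on the other strand. Of 20 genes of ER-associated degradation, the ATPase subunit gene Vcp rose (0.16, adjusted p = 0.0112), with exons that overlap 1700022I11Rik on the other strand, and the lectin gene Erlec1 fell (-0.16, adjusted p = 0.035). Of 30 genes of translocation and traffic, the signal peptidase subunit Spcs3 fell (-0.23, adjusted p = 0.0316) and 0 rose. Of 2 tested genes on the list of testis forms, the broadly expressed oxidoreductase Tmx3 fell (-0.29, adjusted p = 0.0117). The median log2 change was 0.09 for the sensors and regulators, -0.03 for folding factors, -0.01 for degradation and 0.05 for translocation, beside -0.01 for all genes. With neighbours summed none of the 7 genes named here outside the sensors and regulators passed (limma-voom, adjusted p from 0.0779 for Tmx3 to 0.211 for Ero1lb). With no filter Erlec1, Ero1lb, Ppib and Spcs3 did not pass (limma-voom, adjusted p = 0.0827, 0.0856, 0.0681 and 0.0698), and Ero1lb did not with DESeq2 (adjusted p = 0.0548).

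**Figure D3:**
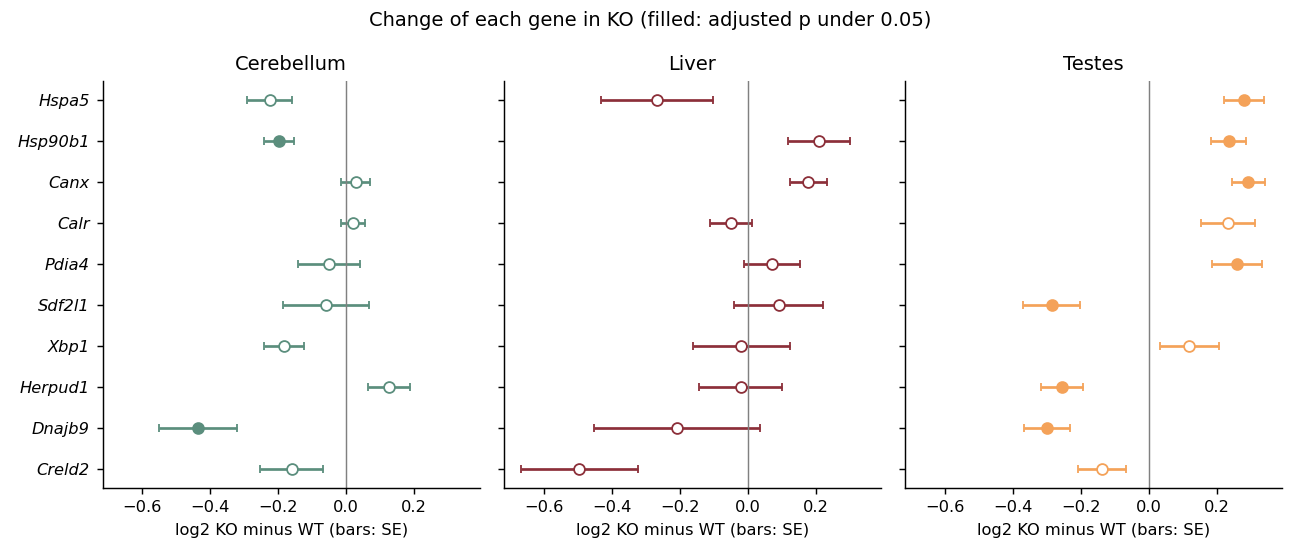
Log2 change (KO minus WT) of each of the 10 genes in cerebellum, liver and testes, with SE bars and filled points for adjusted p under 0.05. Filled points are Hsp90b1 and Dnajb9 in cerebellum, none in liver, and Hspa5, Hsp90b1, Canx, Pdia4, Sdf2l1, Herpud1 and Dnajb9 in testes.

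In liver 0 of the 10 genes were called in either direction (limma-voom, over 12816 genes), where 2.79% of all genes were called higher and 3.12% lower. An unadjusted p under 0.05 was reached by 3 of the 10 and by 23.3% of all genes, edgeR called 0, and DESeq2 called 1. The ranges of KO and WT overlapped for all 10, against 16.2% of all genes with ranges apart. The median log2 change was -0.02, beside -0.003 for all genes. Hepatocyte markers summed to 45451 to 50723 scaled CPM in WT and 52749 to 72472 in KO, with 1 of 6 called higher and 1 lower, and their part in the liver values was not tested. The values nearest to the threshold were Canx, at 0.18 ± 0.055 (adjusted p = 0.0811), and Creld2, at -0.50 ± 0.17 (adjusted p = 0.115, and 0.0422 with DESeq2).

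Within each genotype of liver, some of the chaperone genes spread widely between libraries. Hspa5 was at 564, 555, 391 and 436 scaled CPM in WT and at 462, 466, 314 and 329 in KO. In each genotype the first pair of libraries was above the second pair, and WT replicates 3 and 4 lay below KO replicates 5 and 6. Dnajb9 was at 20.4, 23.04, 15.9 and 19.3 in WT and at 25.7, 26.3, 12.5 and 12.0 in KO, so that KO held both the highest and the lowest libraries. Creld2 was at 24.3, 26.2, 16.1 and 16.3 in WT and at 14.8, 17.7, 13.4 and 13.02 in KO, with WT replicates 1 and 2 above all others.

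Several other members did not follow the same order within KO. Herpud1 was at 258.8, 252, 185 and 182 in WT and at 182, 192, 236 and 228 in KO. Xbp1 was at 168, 166, 120 and 112 in WT and at 114, 126, 147 and 155 in KO. For both, WT replicates 1 and 2 were high as for Hspa5, but KO replicates 7 and 8, where Hspa5 and Dnajb9 were low, were above KO replicates 5 and 6. Pdia4 (169.5 and 164 against 208 and 212), Calr (509 and 500.5 against 596 and 609) and Sdf2l1 (20.9 and 21.4 against 29.4 and 26.4) were also lower in KO replicates 5 and 6 than in KO replicates 7 and 8. KO replicates 5 and 6 had 19958739 and 18145725 total counts with 27.2 and 26.4% in the 6 noncoding RNAs, against 37889615 and 30258515 counts with 18.8 and 17.5% in KO replicates 7 and 8, and the part of depth and of these RNAs was not tested. The SD of log2 scaled CPM of the 10 genes had a median of 0.21 in liver WT and 0.19 in liver KO, beside 0.13 and 0.15 for all genes, while in testes it was 0.065 in WT and 0.11 in KO, beside 0.095 and 0.15. In liver 6 of the 10 genes in WT and 7 in KO lay above the median SD of all genes, which splits all genes evenly. Canx lay below it in both, at 0.063 and 0.036.

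**Figure D4:**
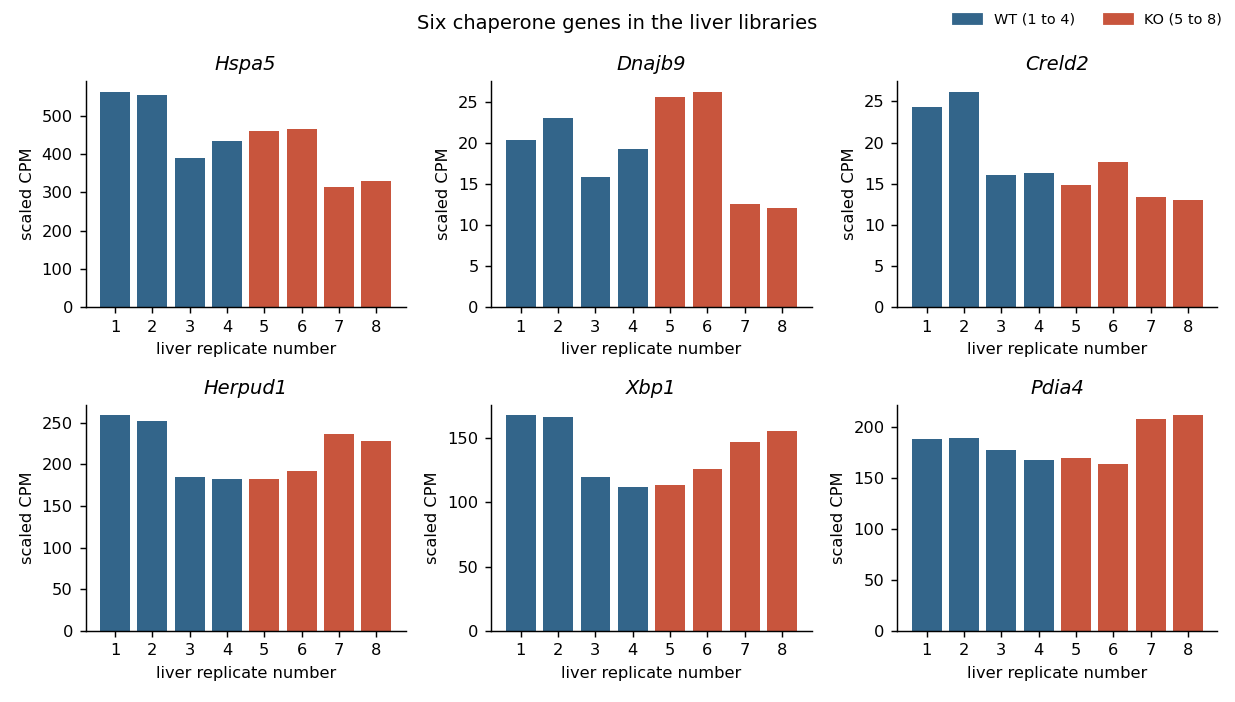
Scaled CPM of Hspa5, Dnajb9, Creld2, Herpud1, Xbp1 and Pdia4 in the 8 liver libraries, 1 bar per library from 0, WT in blue and KO in red. Hspa5 and Dnajb9 drop from KO replicates 5 and 6 to KO replicates 7 and 8 (462 and 466 to 314 and 329 for Hspa5), while Herpud1, Xbp1 and Pdia4 go up.

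Calls on the related lists in liver stand beside 2.79% of all genes called higher and 3.12% lower. Of 32 other ER folding factors, 1 was higher and 2 were lower. Hyou1, a nucleotide exchange factor of Hspa5, fell from 313 ± 18.003 to 239 ± 8.48 scaled CPM (log2 change -0.32 ± 0.054, adjusted p = 0.00821), and Ero1lb fell from 55.7 ± 6.26 to 38.9 ± 3.14 (-0.49 ± 0.089, adjusted p = 0.0107). Ppib rose from 137 ± 6.55 to 157 ± 3.52 (0.22, adjusted p = 0.0422). Of 16 sensors and regulators, the liver-enriched factor Creb3l3 rose from 283 ± 7.66 to 319 ± 9.42 (0.24, adjusted p = 0.0181) and 0 fell. Of 30 genes of translocation and traffic, the coat proteins Sec24d and Sec23b fell (-0.25 and -0.36, adjusted p = 0.0271 and 0.0481), while 0 of 21 degradation genes (3 with an unadjusted p under 0.05) and 0 of 3 testis forms (0 with one) passed in limma-voom. With neighbours summed none of these 6 genes passed, the lowest adjusted p being 0.33. The calls of Creb3l3 and Ppib were also lost with TMM (limma-voom, adjusted p = 0.0709 and 0.0557) and with edgeR (adjusted p = 0.093 and 0.0669), and that of Sec23b with edgeR (adjusted p = 0.0514). With no filter Ppib and Sec23b did not pass (limma-voom, adjusted p = 0.0572 and 0.0912).

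In testes 7 of the 10 genes were called, in both directions. Canx, Hspa5, Hsp90b1 and Pdia4 were called higher in KO, and Dnajb9, Herpud1 and Sdf2l1 were called lower (limma-voom, over 19329 genes), while Calr, Creld2 and Xbp1 did not pass. The 4 genes higher stand beside 9.74% of all genes, and the 3 lower beside 10.7%. Ranges were apart for 5 of the 10, against 27.5% of all genes, with 2 higher and 3 lower. By quantile normalization the median log2 change of the 10 was 0.18, beside 0.0001 for all genes. The changes of Hspa5, Hsp90b1, Canx and Calr that enter it were smaller with TMM, as given below.

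Canx was at 220, 205, 205 and 213 scaled CPM in WT and at 250.5, 248, 237 and 233 in KO. All KO libraries were above all WT libraries, with a log2 change of 0.29 ± 0.049 (adjusted p = 0.00445). Pdia4 was at 43.0, 42.6, 42.1 and 41.1 in WT and at 48.9, 48.6, 58.0 and 47.3 in KO, and its ranges were also apart (0.26 ± 0.073, adjusted p = 0.0298). Hspa5 was at 442, 436, 429 and 449.7 in WT and at 503, 497, 507 and 448 in KO, so that KO replicate 8 lay within the WT range (0.28 ± 0.059, adjusted p = 0.00985). Hsp90b1 was at 439, 427, 441 and 441 in WT and at 484, 485, 474 and 434 in KO, again with KO replicate 8 within WT (0.24 ± 0.051, adjusted p = 0.0111).

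The sizes of the Hspa5, Hsp90b1 and Canx increases depended on normalization, and those given above were by quantile normalization. With TMM in limma-voom, Hspa5 had a log2 change of 0.15 (adjusted p = 0.0548) and Hsp90b1 one of 0.10 (adjusted p = 0.159), and edgeR gave 0.0619 and 0.175 as adjusted p. DESeq2 called Hspa5 (0.15, adjusted p = 0.0413) but not Hsp90b1 (adjusted p = 0.179). Canx (0.20) and Pdia4 (0.26 to 0.27) passed in each of these 3 fits. Calr, at 401, 441, 424 and 429 in WT and 437, 431, 513 and 446 in KO, had a log2 change of 0.23 (adjusted p = 0.0564) by quantile normalization and 0.11 (adjusted p = 0.231) with TMM.

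**Figure D5:**
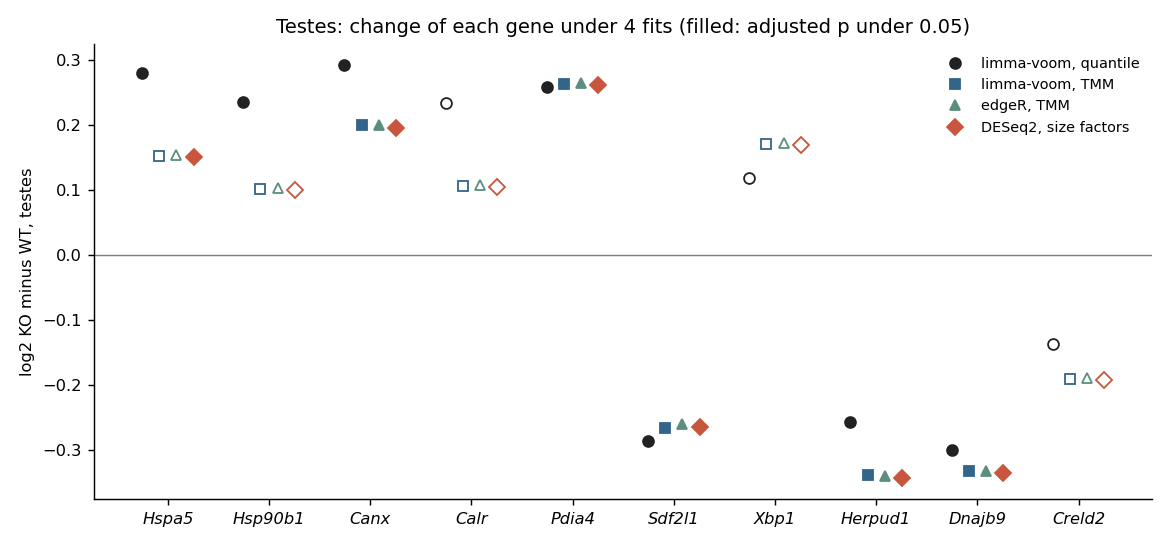
Log2 change (KO minus WT) of each gene in testes under limma-voom with quantile normalization, limma-voom with TMM, edgeR and DESeq2, with filled points for adjusted p under 0.05. Hspa5, Hsp90b1, Canx and Calr are lower in the last 3 fits (Hspa5 0.28 against 0.15), and Canx, Pdia4, Sdf2l1, Herpud1 and Dnajb9 are filled in all 4.

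Of the genes called lower in testes, Herpud1 was at 158, 191, 189 and 178 scaled CPM in WT and at 139, 143, 133 and 150.3 in KO, all KO libraries being below WT, with a log2 change of -0.26 ± 0.062 (adjusted p = 0.0164). Dnajb9 was at 93.7, 81.0, 91.8 and 87.9 in WT and at 76.1, 69.9, 71.3 and 64.1 in KO, a log2 change of -0.30 ± 0.068 (adjusted p = 0.0132). Sdf2l1 was at 35.7, 35.2, 37.7 and 40.0 in WT and at 32.1, 34.4, 28.1 and 29.6 in KO (-0.29 ± 0.083, adjusted p = 0.0326). In all 3 genes the KO range lay below the WT range, and each passed with TMM, edgeR and DESeq2. With 1 library left out, the call of Sdf2l1 held in 3 of 8 fits (adjusted p up to 0.107), that of Pdia4 in 4 of 8, and those of Herpud1 and Dnajb9 in 7 of 8 each. With no filter neither Sdf2l1 nor Pdia4 was called (limma-voom, adjusted p = 0.0652 and 0.0602). Creld2 (116 ± 7.9 in WT and 102 ± 8.5 in KO, adjusted p = 0.174) and Xbp1 (14.0 ± 0.7 and 15.8 ± 2.0, adjusted p = 0.334) did not pass. Without WT replicate 3 none of the 3 decreases was called and 3 genes were called higher.

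The cell type markers of the testis moved with genotype. Sertoli cell markers summed to 401 to 446 scaled CPM in WT and 494 to 651 in KO, with 9 of 10 called higher, and spermatid markers summed to 8804 to 9480 in WT and 5978 to 8049 in KO, with 3 of 6 called lower. KO replicates 7 and 8 had the lowest spermatid sums (5978 and 6335) and the highest Sertoli sums (651 and 580). Leydig cell markers summed to 1092 to 1207 in WT and 952 to 1530 in KO, with 1 of 6 higher and 1 lower. The part of these cell types in the changes of the chaperone genes was not tested. Markers of plasma cells, which hold much ER, summed to at most 4.45 scaled CPM in testes and 12.3 in liver.

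Calls on the related lists in testes stand beside 9.74% of all genes called higher and 10.7% lower. Of 14 sensors and regulators, Mbtps1, the protease that cleaves Atf6, rose from 59.7 ± 1.66 to 75.1 ± 9.74 scaled CPM (log2 change 0.35, adjusted p = 0.0175) and Ern1 (Ire1) rose from 24.2 ± 2.07 to 33.1 ± 5.20 (0.42, adjusted p = 0.0185), with 0 lower. Of 31 other folding factors 3 were higher and 0 lower, namely the prolyl isomerase Fkbp14 (0.42, adjusted p = 0.00458, exons overlapping Plekha8 on the other strand), the glycoprotein sensor Uggt1 (0.39, adjusted p = 0.0077) and the glucosidase subunit Ganab (0.23, adjusted p = 0.0133). The last pair acts in the same folding cycle as Canx and Calr. Of 31 genes of translocation and traffic 5 were higher and 1 lower, with Ssr3 at 0.30 (adjusted p = 0.02), Ssr1 at 0.21 (adjusted p = 0.0138) and Srprb at -0.22 (adjusted p = 0.0263). With neighbours summed none of the named genes on the 5 lists passed in testes (limma-voom, adjusted p of 0.157 or more), and with no filter Srprb and the testis form Calr4 did not (adjusted p = 0.0563 and 0.0576).

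Of 21 genes of ER-associated degradation in testes, 1 was higher and 5 were lower, as Herpud1 was. The ubiquitin-conjugating enzyme Ube2g2 fell from 47.2 ± 0.99 to 39.7 ± 0.82 scaled CPM (log2 change -0.26, adjusted p = 0.0088), Herpud2, the paralog of Herpud1, fell from 137 ± 5.67 to 114 ± 5.35 (-0.20, adjusted p = 0.021), and Ube2j1 fell from 377 ± 15.5 to 305 ± 23.9 (-0.19, adjusted p = 0.024, and -0.31 with TMM, edgeR or DESeq2). The 8 testis forms of ER chaperones had 1 call, Calr4, which rose from 4.44 ± 0.75 to 6.34 ± 0.39 (0.47, adjusted p = 0.0289). Their median log2 change was -0.16, beside 0.07 for translocation, 0.06 for folding factors, 0.02 for degradation and 0.12 for sensors and regulators. Of genes other than the 10 whose promoter window held the full element, 18 were tested in testes and 4 were higher and 0 lower, beside 9.74% and 10.7% of all genes. In liver 0 of 12 were higher and 1 lower, beside 2.79% and 3.12%, and in cerebellum 0 of 12 were higher and 1 lower, beside 3.93% and 2.51%.

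The KO effects were compared between tissues within the 24-library fit. Of the 10 genes, 1 differed between cerebellum and liver, where 7.67% of all genes did. This was Hsp90b1, with a difference of -0.35 ± 0.091 (log2, cerebellum minus liver, adjusted p = 0.0198). Between testes and liver 1 differed, against 15.9% of all genes, and this was Sdf2l1 at -0.44 ± 0.15 (testes minus liver, adjusted p = 0.045). Between testes and cerebellum 1 differed, against 14.5% of all genes, and this was Herpud1 at -0.54 ± 0.17 (testes minus cerebellum, adjusted p = 0.0334). The Sdf2l1 difference was not called by edgeR or DESeq2 (adjusted p = 0.0745 and 0.0641), the Sdf2l1 and Herpud1 differences were not called under quantile normalization of all 24 libraries (limma-voom, adjusted p = 0.0608 and 0.054), and none of the 3 was called with neighbours summed or with no filter (adjusted p = 0.321 for Hsp90b1, 0.237 for Sdf2l1 and 0.501 for Herpud1). Each count was near or below the share of all genes. The opposite signs of Hspa5 in testes and cerebellum did not pass as a difference in this fit, which used TMM (0.33 ± 0.17, adjusted p = 0.178). The Hspa5 changes of 0.28 in testes and -0.23 in cerebellum came from the separate quantile-normalized fits.

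The genes whose deviations from their group means followed Hspa5 most closely over the 24 libraries were Ppp1r3c (Pearson r = 0.90, Spearman rho = 0.88), Cct3 (0.89 and 0.87), Asns (0.87 and 0.72), Hsp90aa1 (0.87 and 0.80) and Coq10b (0.87 and 0.83). These are descriptions over libraries that share depth and neighbours, and the liver gave most of the spread. Dnajb9 ranked 7 of 11111 genes (r = 0.86), Hsp90b1 52 (0.76) and Creld2 79 (0.74). Over all 24 libraries Canx had 0.36, Xbp1 0.19 and Herpud1 0.07, and Sdf2l1, Pdia4 and Calr had values of -0.06, -0.08 and -0.18. Within liver alone r with Hspa5 was 0.90 for Dnajb9, 0.86 for Creld2 and -0.48 for Pdia4. Outside liver the values were mixed. In cerebellum r was 0.80 for Xbp1, 0.77 for Hsp90b1, 0.73 for Dnajb9 and Cct3, 0.72 for Coq10b, 0.69 for Ppp1r3c, 0.68 for Hsp90aa1, 0.63 for Canx and 0.58 for Pdia4, against 0.11 for Asns and -0.14 for Creld2. In testes it was 0.88 for Hsp90b1, 0.79 for Cct3, 0.61 for Dnajb9, 0.60 for Canx and 0.49 for Pdia4, against 0.14 for Asns, 0.07 for Coq10b, -0.03 for Ppp1r3c and -0.58 for Herpud1.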

How the data were processed

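Total RNA of 3 tissues from KO and WT mice was sequenced as paired ends after ribosomal RNA removal with a stranded kit (4 libraries per group, replicates 1 to 4 WT and 5 to 8 KO). The authors aligned reads to mm10 with STAR and deposited RSEM expected counts per gene (GENCODE M21), not normalized. Tool versions and the strand setting are not given in the sources used here. The 10 genes and all lists were chosen with earlier results of these data known.

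The study's methods state a filter at 1 CPM, quantile normalization and limma-voom. Here genes with at least 1 CPM in 4 or more libraries were fitted with limma-voom (limma 3.58.1) after quantile normalization, KO against WT, separately for each tissue (the minimum of 4 libraries and the separate fits were choices made here), with Benjamini-Hochberg adjustment over all genes and a threshold of 0.05. Effects and WT levels were compared between tissues in a 24-library limma-voom fit with TMM (edgeR 4.0.16). Expected counts were rounded for edgeR and DESeq2 1.42.0. The fits were tested on simulated data, in which the share of false calls exceeded the threshold for the differences of KO effect between cerebellum and liver and, further, between testes and liver. The genes named are the 10 members, Thumpd1, up to 3 called genes per list and tissue by smallest adjusted p, and the 5 genes most correlated with Hspa5. Alternatives were other tools, TMM, no filter, TMM without 6 noncoding RNAs, sample weights, leaving out each library, and a replicate block. Summing neighbouring libraries was added after seeing the data. Expected counts were whole numbers for the 10 genes except Dnajb9 in 2 libraries and Hsp90b1 in 1. Exons of Hsp90b1 overlap 1810014B01Rik on the other strand over 415 bases, and the strand setting decides whether such reads are shared. P-values judge each difference against the spread between these libraries, and the labels do not say whether each library is a separate animal.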

Additional observations from a re-analysis of the deposited data

Results flagged for a closer look

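Among 60 groups of 4 libraries (10 genes, 6 groups), 3 had 1 library far from the others, where chance gives about 1 in 20. In testes KO, replicate 8 had 448 scaled CPM of Hspa5, while the others had 497 to 507. In testes WT, replicate 2 had 427 scaled CPM of Hsp90b1, while the others had 439 to 441. In testes KO, replicate 7 had 58.0 scaled CPM of Pdia4, while the others had 47.3 to 48.9.

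The KO effect differed between tissues by the test of the difference itself (limma-voom) for 3 genes. Hsp90b1 differed by -0.348 on the log2 scale between cerebellum and liver (adjusted p = 0.0198), Sdf2l1 by -0.436 between testes and liver (adjusted p = 0.045), and Herpud1 by -0.538 between testes and cerebellum (adjusted p = 0.0334). These are 1 of 10 genes in each pair of tissues, beside 7.67%, 15.9% and 14.5% of all genes. With neighbouring libraries summed none of the 3 passed, with adjusted p of 0.281, 0.311 and 0.245, and with no filter none did, with adjusted p of 0.321, 0.237 and 0.501.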

How the results depend on the processing

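Of the 10 genes, 2 were called in cerebellum by limma-voom with quantile normalization, 4 with DESeq2 or sample quality weights, 1 with no filter, and 0 to 4 when 1 library was left out. In liver the count of 0 became 1 with DESeq2 (Creld2) and 2 with sample quality weights (Creld2 and Canx). In testes the count of 7 ranged from 3 to 8 when 1 library was left out. Hspa5 and Hsp90b1 were not called in testes with TMM in limma-voom or with edgeR, and Hsp90b1 was not with DESeq2. The calls over all genes moved too when 1 library was left out, from 1045 to between 417 and 2317 in cerebellum, from 757 to between 284 and 795 in liver and from 3957 to between 1711 and 4913 in testes, so the shares of all genes given beside the members also depend on single libraries. With neighbouring libraries summed, chosen after seeing the data, it was 0 in each tissue, and 0 for the differences of KO effect between each pair of tissues, while their log2 changes kept their sign. That fit has 2 libraries per group, and it called few genes of any kind.

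The count of genes whose KO effect differed, 1 for each pair of tissues, became 0 with no filter for cerebellum and liver. For testes and liver it was 0 with edgeR or DESeq2, 2 with quantile normalization over 24 libraries, and 0 to 3 when 1 library was left out. For testes and cerebellum it was 3 with quantile normalization over 24 libraries, 0 with no filter, and 0 to 2 when 1 library was left out. The genes called under quantile normalization over 24 libraries did not include Sdf2l1 for testes and liver or Herpud1 for testes and cerebellum. With the replicate number as a block across tissues the count for testes and cerebellum was 2, and the block changed no other count by over 1.5 times, but under it Sdf2l1 was not called for testes and liver (adjusted p = 0.251). Libraries with the same number in different tissues had correlations of deviations from -0.21 to 0.20. Between testes and liver they were 0.11 to 0.16 for the KO libraries and -0.06 to 0.04 for WT. The numbers were not taken as pairs, and KO and WT share no numbers. The cause of these changes was not tested.

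The log2 difference of Hsp90b1 WT levels between testes and liver turned from -0.06 to 0.19 with quantile normalization over 24 libraries (adjusted p = 0.00735). In cerebellum the change of Canx was -0.001 with TMM, and that of Calr was -0.0038 with edgeR, -0.0051 with DESeq2, -0.0041 with TMM and -0.0019 with TMM without 6 noncoding RNAs. With 1 library left out, the ranges in cerebellum were -0.011 to 0.0506 for Canx, -0.1206 to 0.0278 for Pdia4 and -0.1399 to 0.0214 for Sdf2l1. In liver they were -0.0143 to 0.1629 for Sdf2l1, -0.1178 to 0.0665 for Xbp1 and -0.0929 to 0.0564 for Herpud1, and for Sdf2l1 WT levels between testes and liver -0.1015 to 0.0494.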
